A study of Rattus norvegicus with 30 samples.

Results

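The Grik1 locus on chromosome 11 was described here through the DNA methylation (DNAm) peaks within 100 kb on either side of an intronic site of the gene, in the prefrontal cortex (PFC) of 30 rats from 3 prenatal groups. Peaks from the whole set of animals were joined wherever they shared 1 bp or more, and joined regions seen in 2 or more animals that overlapped 28093020 to 28293510 on chromosome 11 of Rn6 were kept. They numbered 40 of the 432103 regions of this kind on the autosomes, and 35 of them were seen in 3 or more animals and could be tested. The window was centred on the site at 28193020 to 28193510, which the study lists as differing after prenatal alcohol exposure (PAE) and places in an intron. The site was thus chosen for its difference between these same animals, so its group values are given as a description with no test. Tests were made on the other regions, called neighbours here and numbered 1 to 40 by position, with the site as region 21.

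All animals were Sprague-Dawley offspring, outbred, whose PFC was taken on postnatal day 22. PAE dams had free access to a liquid diet with ethanol at 6.37% v/v, 36% of its calories, from gestation days 1 to 21. Pair-fed (PF) dams received a liquid control diet, with maltose-dextrin in place of ethanol, in the amount that a PAE partner had eaten. Control (CON) dams ate a pelleted form of the control diet freely, and all dams were returned to chow afterwards. Each group held 10 animals from 5 dams, with 5 labelled female and 5 labelled male, 1 of each labelled sex per dam. The treatment was given to the dam, so littermates shared it, and bulk tissue was measured, in which DNAm per cell and the mixture of cell types cannot be told apart. The peaks carry no expression, so the tissue label could not be checked against marker genes.

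Grik1 encodes GluK1, a subunit of the kainate receptors, which are ionotropic glutamate receptors. Kainate receptors form as tetramers of GluK subunits, pass cations when glutamate binds, and act both at the postsynaptic membrane and at presynaptic terminals, where they modulate transmitter release. In the forebrain GluK1 is known mainly from interneurons, the local inhibitory cells. DNAm within introns of a gene is common in mammals and has no single relation to expression. In meDIP-seq, an antibody against 5-methylcytosine pulls down methylated fragments, and a peak marks a stretch where more fragments pile up than around it. It depends on the number of methylated CpGs as well as on how many cells carry them, so a height is not a percentage of methylated cells.

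Each animal was given, for each region, a normalized height, the highest pileup of its peak (fragments over the summit) per 1000000 filtered fragments. An animal with no called peak, or with a lower one, was set to a common floor of 0.438. Libraries held 11548314 to 16555049 filtered fragments and 103898 to 208631 autosomal peaks. PAE libraries had the fewest peaks on average, 135828 ± 26494, against 151576 ± 26759 in CON and 143998 ± 19297 in PF (SD, n = 10 each), and the 5 sequencing chips did not hold the groups evenly. The sex labels did not match the sex chromosomes: in 7 libraries, 2 labelled female and 5 labelled male, chromosome X held 2.65 to 3.14% of peaks and chromosome Y between 4 and 11 peaks. The other 23, of which 13 were labelled female, had 0.774 to 1.15% and between 38 and 87 peaks, so sex is given as labelled throughout. Results by labelled sex, also those that pair littermates, compare labels and cannot be read as differences between the sexes.

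At the Grik1 site a peak was called in 16 of the 30 animals. The 16 peaks were alike in place, with summits within 73 bp of each other (28193218 to 28193291) and a stretch of 130 bp, 28193228 to 28193357, common to all of them. Single peaks were 242 to 465 bp long, while the merged site spans 491 bp. Their pileup was 6 to 16 fragments, with a median of 13.5. Counting error alone is wide at such numbers, as the exact Poisson 95% interval runs from 2.20 to 13.1 around 6 fragments and from 9.15 to 26.0 around 16. The peaks were 2.91 to 7.54-fold above the local background that the peak caller had estimated (median 5.83), and 15 of the 16 had q below 0.01. The site was thus a single, moderate peak that was present in about as many animals as not.

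The site had a called peak in 7 of 10 CON, 3 of 10 PAE and 6 of 10 PF animals. The called CON animals had normalized heights of 0.451, 0.593, 0.905, 0.944, 1.13, 1.15 and 1.20. The called PAE animals had 0.679, 0.787 and 1.02, and the called PF animals had 0.846, 0.875, 0.879, 1.02, 1.05 and 1.06. All others stood at the floor, so the groups differed mostly in how many animals had a peak, while the heights of called peaks overlapped between all 3 groups. With the floor included, means were 0.556 ± 0.206 for PAE, 0.769 ± 0.329 for CON and 0.749 ± 0.277 for PF (SD, n = 10 each), and the medians were 0.438, 0.749 and 0.860, respectively. The fitted log2 difference, with labelled sex and sequencing chip in the model, was −0.54 for PAE against CON (standard error 0.241) and −0.44 for PAE against PF (standard error 0.241). For PF against CON it was −0.10 (standard error 0.250). These differences take a missing peak as the floor, and with missing peaks set to 0 and a pseudocount of 0.1 they were −1.62, −1.41 and −0.21. In the plot of single animals at the site and at 2 neighbours, the open symbols on the dotted line are the animals without a called peak.

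**Figure D1:**
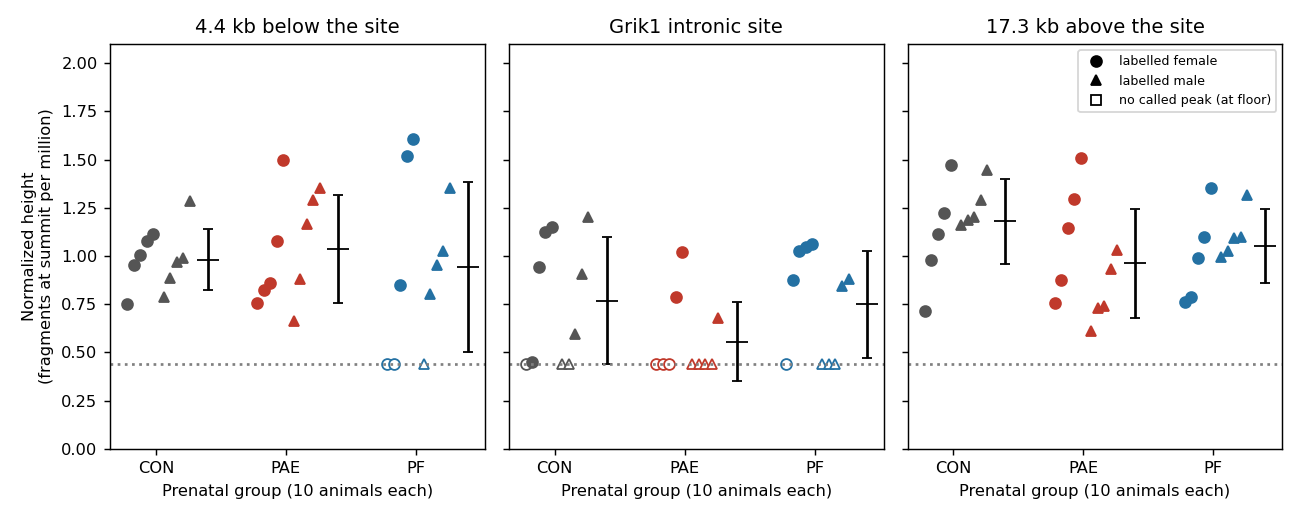
Normalized height (fragments at the summit per 1000000 filtered fragments, linear axis) of each animal by prenatal group at the region 4.4 kb below the site, at the Grik1 site and at the region 17.3 kb above it, with filled symbols for called peaks, open ones for animals at the floor (dotted line) and bars for mean ± SD (n = 10). At the site 7 CON, 3 PAE and 6 PF animals stand above the line as called peaks, and at the region 17.3 kb above it all 30 do.

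By labelled sex, a peak at the site was called in 4 of 5 CON, 2 of 5 PAE and 4 of 5 PF animals labelled female. Among animals labelled male it was called in 3 of 5, 1 of 5 and 2 of 5. PAE thus had the fewest within either label, and PF animals labelled male stood between PAE and CON. Normalized heights were 0.822 ± 0.354, 0.625 ± 0.268 and 0.889 ± 0.263 in CON, PAE and PF animals labelled female, and 0.716 ± 0.333, 0.486 ± 0.108 and 0.608 ± 0.233 in those labelled male (SD, n = 5 each). Of the 7 libraries with the higher share of peaks on chromosome X, 3 had a peak at the site. Within litters, both littermates had a peak in 2 of 5 CON, 1 of 5 PAE and 1 of 5 PF litters. Neither had one in 3 of 5 PAE litters and in 0 CON or PF litters.

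The site was also described by sequencing chip and by the number of peaks in the library, with no test. On the chip with the most peaks per library (median 182836), a peak was called in 2 of 2 CON, 2 of 3 PAE and 1 of 1 PF animals, so 2 of the 3 called PAE animals lay on that chip. On the chip with the next highest median (153344), it was called in 2 of 3 CON and 0 of 2 PF animals. On the 4 chips that held both PAE and CON animals, the log2 difference between their means was below 0 on 2, above 0 on 1 and equal to 0 on 1, and ran from −1.05 to 0.16. All PAE and CON animals on the chip at 0 stood at the floor, as did all PAE animals on the chip at −1.05. On the 3 chips with PAE and PF animals the difference was below 0 on 3, from −0.88 to −0.31. Every PAE animal stood at the floor on 2 of these 3, so PAE could not come out higher there. The other chip held 1 PF animal. On the 4 chips with PF and CON animals the difference was below 0 on 3 and above 0 on 1, from −0.82 to 0.74. Both of these ends came from chips where 1 group stood wholly at the floor. Over the 30 animals the log2 height at the site had a Pearson correlation of 0.439 and a Spearman correlation of 0.315 with the number of autosomal peaks, and Pearson's r was 0.295 without the 2 libraries farthest from the median number. With the log2 number of peaks as a covariate, an alternative chosen after the data were seen, the site's difference was −0.50 for PAE against CON and −0.42 for PAE against PF.

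The 40 regions covered 23594 bp, 11.8% of the 200491 bp window, with 20 regions below the site and 19 above it. Their median length was 517 bp (range 321 to 1559 bp), against 499 bp for all autosomal regions of this kind. The median region was seen in 6.5 animals, against 6 for all such regions. A peak was called in all 30 animals at 1 region, in 25 to 29 at 2, in 15 to 24 at 6, in 6 to 14 at 13, in 3 to 5 at 13 and in exactly 2 at 5. Mean normalized height over all animals ran from the floor to 1.06, with a median of 0.489. In median length and number of animals the locus was thus close to the autosomes as a whole. The site ranked 8th of the 40 by animals called and 4th by mean height. At the edges, the outermost regions inside the window started at 28094140 (5 animals called) and 28291256 (25 animals), and the nearest outside it started at 28089779 (3 animals) and 28301206 (6 animals). A further 10 regions in the window had a peak in only 1 animal and were left out by the rule.

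**Figure D2:**
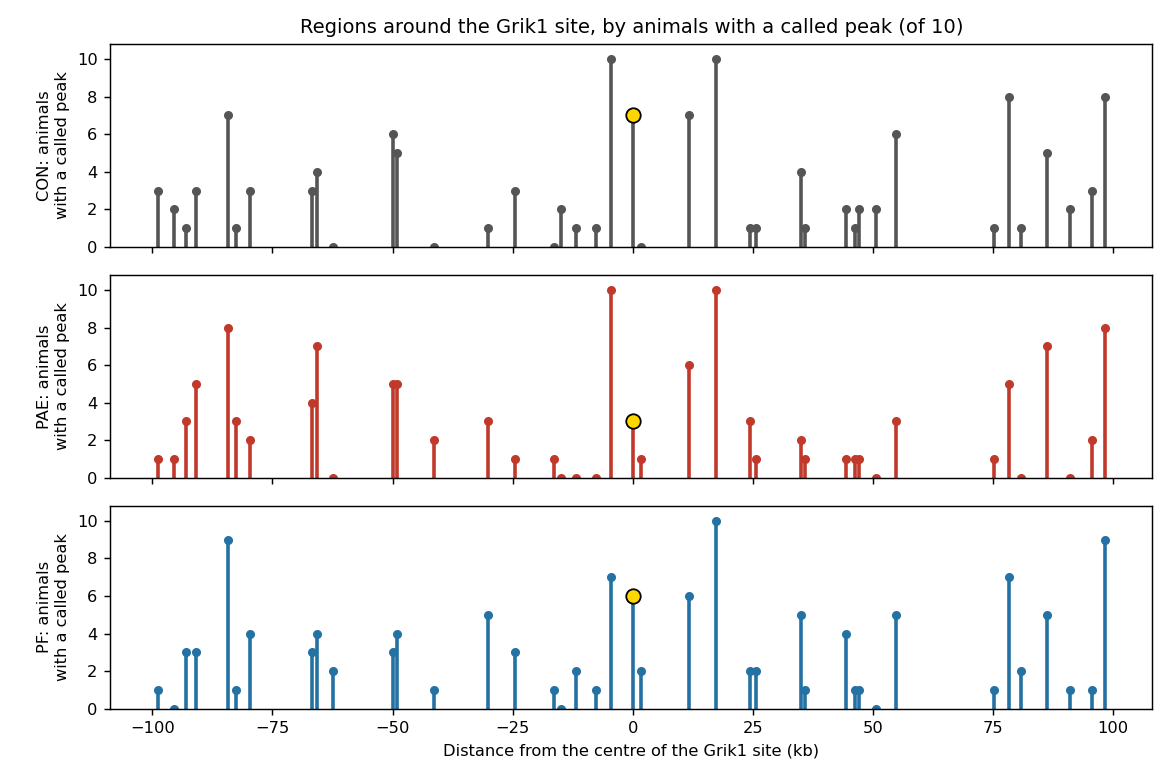
Number of animals with a called peak (of 10 per group, from 0) for the 40 regions by distance from the centre of the Grik1 site in kb, in CON, PAE and PF from top to bottom, with the site as the gold point. The line 17.3 kb above the site reaches 10 in all 3 groups, and the site goes from 7 in CON to 3 in PAE and 6 in PF.

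The neighbours called in the most animals were region 24 (all 30), region 20 (27), region 40 (25) and region 5 (24). At 39 neighbours, fewer PAE than CON animals had a peak at 18, more at 12 and as many at 9. Against PF animals the numbers were 16, 12 and 11, and for PF against CON animals they were 13, 15 and 11. The widest gap between PAE and CON animals among the neighbours was 3 animals. Between PAE and PF animals 4 neighbours had a gap of 3 or more animals, and between PF and CON animals the widest gap was 4 animals. Peaks were called in fewer PAE animals than in both other groups at 10 neighbours and in more at 7. How these counts compare with all autosomal regions was not worked out, so they are not read as a trait of the locus. PAE libraries had the fewest peaks on average. By height, 63.3% of all tested regions were lower in PAE than in CON animals, and 56.4% lower than in PF animals. In the plot of normalized heights by library, the few bright rows cross all 3 groups and most cells are at the floor.

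**Figure D3:**
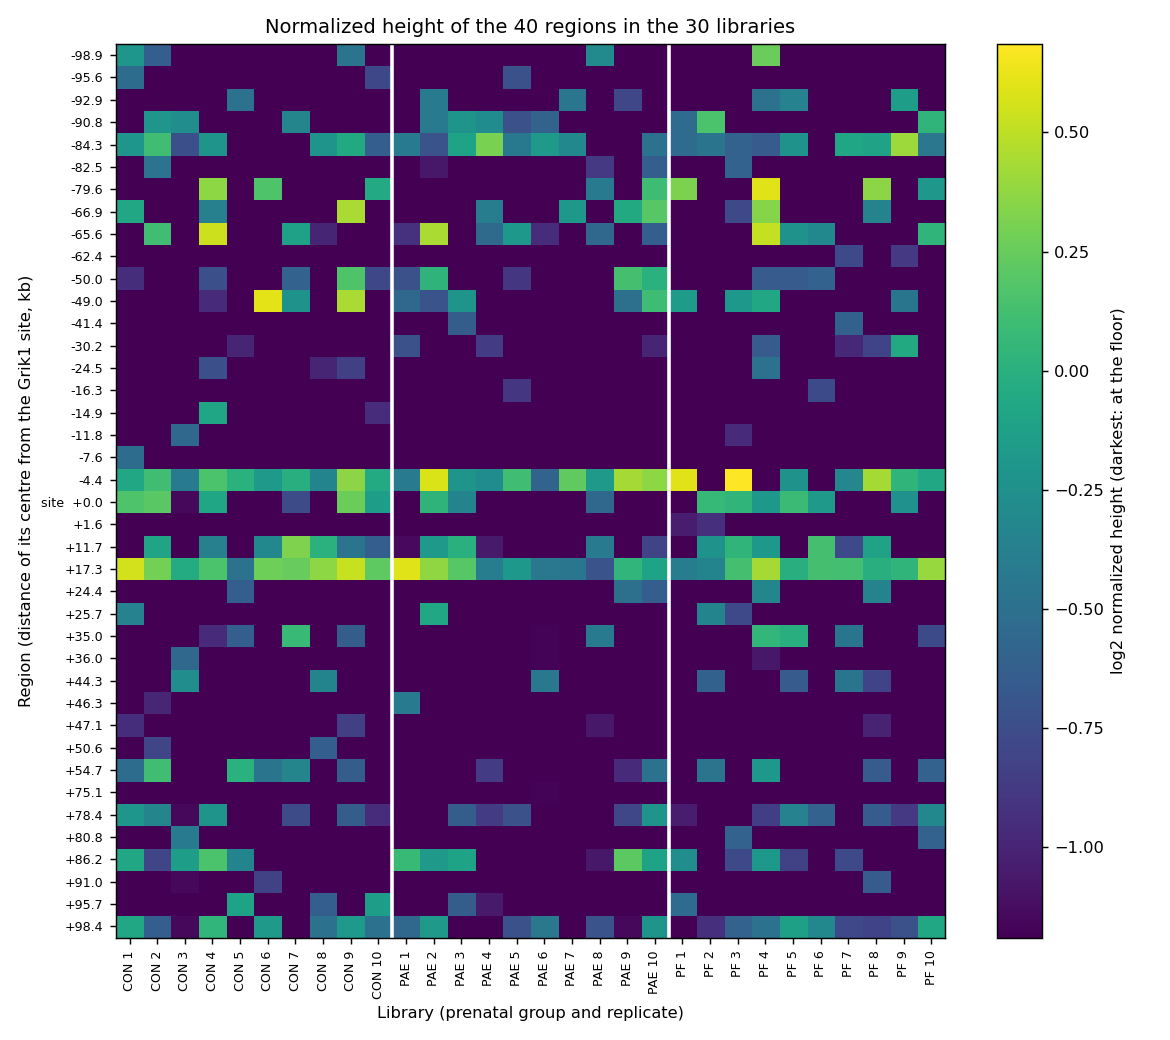
Log2 normalized height (colour, darkest at the floor) of the 40 regions, ordered by distance from the Grik1 site in kb, in the 30 libraries ordered by prenatal group and replicate (white lines between groups). The rows 4.4 kb below and 17.3 kb above the site are bright in most or all libraries, and the row of the site has 7 cells above the floor in CON (CON replicate 3, at 0.451, only just), 3 in PAE and 6 in PF.

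Both sides of the site were flanked by regions of very different strength. Region 20 (28188574 to 28189134), centred 4.41 kb below the site, was among the strongest of the locus, and 10 CON, 10 PAE and 7 PF animals had a peak there. Its lowest, median and highest normalized heights were 0.752, 0.979 and 1.28 for CON, 0.664, 0.980 and 1.50 for PAE, and 0.438, 0.900 and 1.61 for PF. The groups overlapped widely, with log2 differences of 0.08 for PAE against CON (standard error 0.253, adjusted p = 0.956, limma) and 0.30 for PAE against PF (standard error 0.253, adjusted p = 0.988, limma). Its height had a correlation of −0.08 with that of the site over the 30 animals. Region 22 (28194690 to 28195123), only 1.64 kb above the site, had a highest value of 0.524, close to the floor, with 0 CON, 1 PAE and 2 PF animals called.

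The region called in all animals was region 24 (28209766 to 28211324), centred 17.28 kb above the site and, at 1559 bp, the longest of the window. Its lowest, median and highest normalized heights were 0.716, 1.20 and 1.47 for CON, 0.611, 0.903 and 1.51 for PAE, and 0.759, 1.06 and 1.35 for PF. PAE animals covered the whole range of the CON animals, while their median was the lowest of the 3. Means were 0.962 ± 0.284 for PAE, 1.18 ± 0.219 for CON and 1.05 ± 0.192 for PF (SD, n = 10 each). The log2 difference was −0.32 for PAE against CON (standard error 0.162, unadjusted p = 0.0586, adjusted p = 0.681, limma), −0.05 for PAE against PF and −0.27 for PF against CON, and did not pass. Within chips, PAE was below CON on 3 of 4, from −0.51 to 0.10, and under quantile normalization the difference between PAE and CON was −0.15. Its summits were spread over 917 bp, so that different animals could have their highest point at different places in it. Region 5 (28108365 to 28109611), 84.277 kb below the site and the third of the highest by mean height, averaged 0.719 ± 0.237 for CON, 0.756 ± 0.237 for PAE and 0.793 ± 0.240 for PF (SD, n = 10 each).

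The first comparison asked whether DNAm around the Grik1 site differed between PAE animals and CON animals. Of the 34 tested neighbours, 0 passed an FDR of 0.05 with limma, against 0.000284% of all 352026 tested autosomal regions, and 0 had an unadjusted p under 0.05, against 7.37% of all. Fisher's exact test of called peaks gave 0 at the FDR, and 0 at an unadjusted p under 0.05 against 0.864% of all. Its smallest unadjusted p among the neighbours was 0.350. A region called in few animals cannot reach a low p by Fisher's exact test, so its counts say little about such regions. The smallest adjusted p with limma was 0.678. PAE was lower at 20 neighbours and higher at 14, which is 58.8% lower against 63.3% of all tested regions, with a median log2 difference of −0.03 against −0.05. Median ratio scaling and quantile normalization each turned this split to 16 lower and 18 higher, with 55.5% and 52.4% of all regions lower. The largest difference among the neighbours was at region 33 (28247720 to 28248283), 54.736 kb above the site, where 6 CON, 3 PAE and 5 PF animals had a peak. Its height averaged 0.485 ± 0.0907 for PAE, 0.668 ± 0.238 for CON and 0.553 ± 0.160 for PF (SD, n = 10 each). The log2 difference was −0.41 (standard error 0.203, unadjusted p = 0.0501, adjusted p = 0.678, limma), was −0.07 when only peaks covering at least 50% of the region counted, and was −0.27 with the number of peaks as a covariate.

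The second comparison set PAE against PF animals, whose dams shared the reduced food intake. These dams differed in the ethanol and in free access against a restricted ration, which cannot be told apart here. The comparison uses the same PAE libraries as the first. Among the 34 neighbours, 0 passed an FDR of 0.05 against 0% of all tested regions, and 1 had an unadjusted p under 0.05 against 4.46% of all. Fisher's exact test gave 0 at an unadjusted p under 0.05, against 0.747% of all. The smallest adjusted p was 0.988. PAE was lower at 22 and higher at 12, which is 64.7% lower against 56.4% of all, and the median was −0.04 against −0.02 on the log2 scale. Under median ratio scaling the split was 19 and 15 and under quantile normalization 17 and 17, with 52.5% and 51.4% of all regions lower. The region with the smallest p was region 27 (28228063 to 28228561), 35.047 kb above the site, called in 2 PAE, 5 PF and 4 CON animals, with heights of 0.470 ± 0.0975, 0.597 ± 0.239 and 0.549 ± 0.197 (SD, n = 10 each). Its log2 difference was −0.43 (standard error 0.193, unadjusted p = 0.0318, adjusted p = 0.988, limma). It was −0.29 without PF replicate 4, whose library had the most window regions. By chip, PAE was lower on 2 of 3, where all PAE animals stood at the floor and could not come out higher. On the remaining chip all PF animals stood at the floor and the difference was 0.005, so the chips say little on direction. Region 30 (28239305 to 28239835), the next by p, had a peak in only 1 animal of each group and a difference of 0.12 (adjusted p = 0.988, limma). The highest difference was 0.41 at region 37, described further below.

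The third comparison set PF against CON animals, which differ in ration and in the form of the diet. Of the 34 neighbours, 0 passed an FDR of 0.05 against 0% of all tested regions, and 1 had an unadjusted p under 0.05 against 6.46% of all. Fisher's exact test gave 0 at an unadjusted p under 0.05, against 0.786% of all. The smallest adjusted p was 0.773. PF was lower at 18 and higher at 16, or 52.9% lower against 57.7% of all, and both scaling alternatives gave 14 lower and 20 higher, with 53.0% and 50.7% of all regions lower. At region 2 (28097404 to 28098006), 95.56 kb below the site, 2 CON, 1 PAE and 0 PF animals had a peak, and the log2 difference was −0.16 (standard error 0.0758, unadjusted p = 0.0396, adjusted p = 0.773, limma). Under the other settings it ran from −0.93, with missing peaks at 0 and a pseudocount, to −0.08, with only peaks of q below 0.01. At region 14 (28162837 to 28163378), 30.158 kb below the site, the called animals went the other way, with 1 CON, 3 PAE and 5 PF. The log2 difference there was 0.24 (standard error 0.130, unadjusted p = 0.0745, adjusted p = 0.775, limma), and was 0.14 without PF replicate 9. By chip, PF was higher on 4 of 4 (0.05 to 0.54), but every CON animal on those chips stood at the floor. PF could not come out lower there, so the chips say nothing on direction. Standard errors at the neighbours ran from 0.0204 to 0.307 with a median of 0.162, the smallest at regions where nearly all animals stood at the floor and little could be seen. In the plot of the 3 comparisons by position, 29, 27 and 21 of the 34 neighbours lie within 0.2 of 0.

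**Figure D4:**
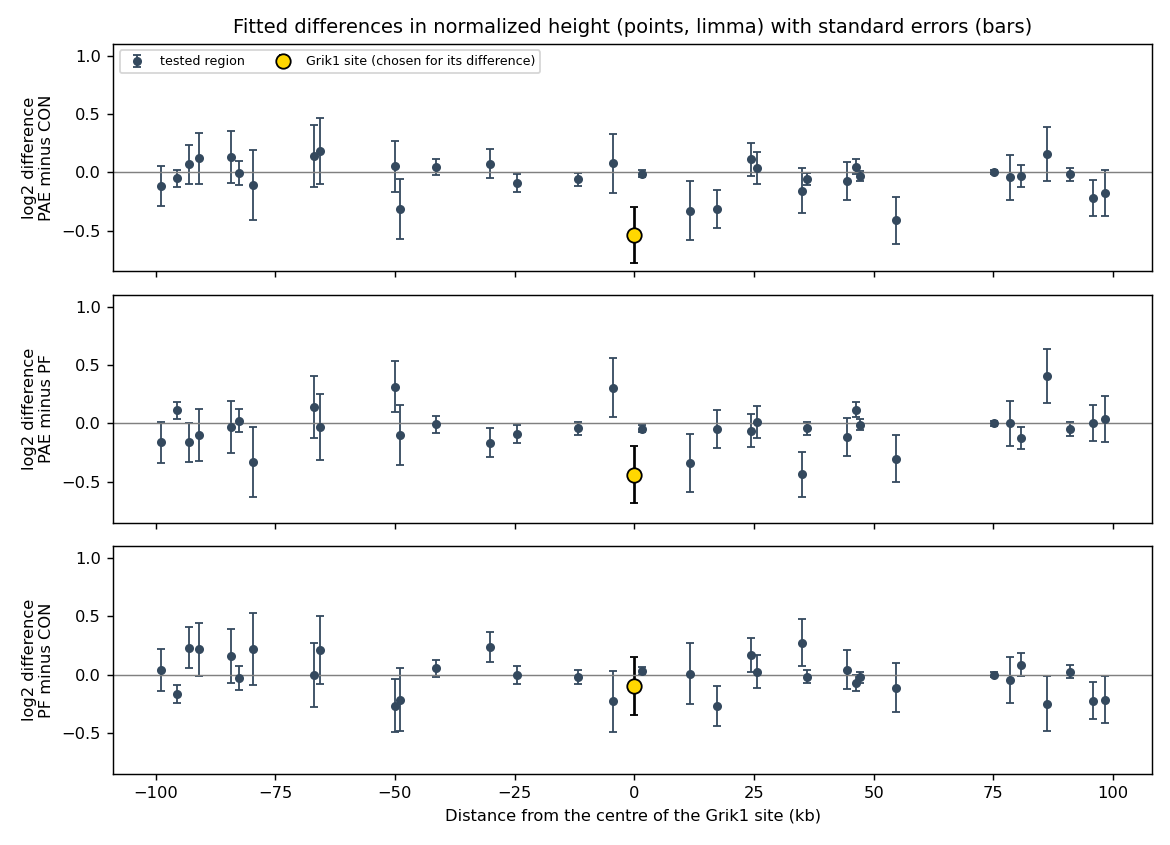
Fitted log2 difference in normalized height (limma, points) with its standard error (bars) for the 34 tested neighbours and the Grik1 site (gold) by distance from the site in kb, for PAE minus CON, PAE minus PF and PF minus CON from top to bottom. The site lies at −0.54, −0.44 and −0.10, and neighbours range from −0.41 to 0.18, from −0.43 to 0.41 and from −0.27 to 0.28.

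Whether a group difference depended on labelled sex was tested as an interaction in the same model. As the labels did not match the sex chromosomes, the test speaks to the labels and not to sex. Of the 34 neighbours, 0 passed an FDR of 0.05 in any of the 3 comparisons, against 0% of all tested regions in each. At an unadjusted p under 0.05 the counts were 1 for PAE against CON, 0 for PAE against PF and 0 for PF against CON, against 4.87%, 3.19% and 4.77% of all tested regions. With littermates paired by dam, as a block in the fit, they were 0, 3 and 2, against 4.70%, 4.48% and 5.23%, and again 0 passed the FDR. The smallest unadjusted p of the paired fit was 0.0732, 0.00664 and 0.0263, and the smallest adjusted p was 0.966, 0.993 and 0.948 (limma). The 1 neighbour of the unpaired fit was region 37 (28279190 to 28279723), 86.192 kb above the site. Its peak was called in 5 of 5 CON, 4 of 5 PAE and 4 of 5 PF animals labelled female, and in 0 of 5, 3 of 5 and 1 of 5 labelled male. The difference between PAE and CON was higher by 0.88 on the log2 scale in animals labelled male than in those labelled female (standard error 0.418, unadjusted p = 0.0446, adjusted p = 0.942, limma). All CON animals labelled male stood at the floor there, so that value rests on where the floor lies. With littermates paired by dam it was 0.86 (standard error 0.518, unadjusted p = 0.118, adjusted p = 0.966, limma).

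Labelled sex itself, as a term of the model, passed the FDR at 0 of the 35 tested regions of the window and at 0 of all 352026. At an unadjusted p under 0.05 it gave 2 of the 35, against 5.12% of all tested regions, a share near that of the window, so the 2 regions are given as values only. At region 37 a peak was called in 13 of 15 animals labelled female and 4 of 15 labelled male, with heights of 0.758 ± 0.231 and 0.531 ± 0.216 (SD, n = 15 each) and a male minus female log2 difference of −0.55 (unadjusted p = 0.00391, adjusted p = 0.854, limma). At region 26 (28218662 to 28219289) it was called in 4 of 15 and 0 of 15, with a log2 difference of −0.22 (unadjusted p = 0.0458, adjusted p = 0.854, limma). Littermates of the 2 labelled sexes could be paired, in a fit with dam as a block that was added after the data were seen. It gave the same count, 2 of the 35, against 6.46% of all, with 0 at the FDR in the window or elsewhere (0%). At region 37 the animal labelled female was higher in 12 of 15 litters, with a paired log2 difference of −0.57 (unadjusted p = 0.0212, adjusted p = 0.768, limma), and at region 26 it was higher in 4 and equal in 11 (unadjusted p = 0.0395, adjusted p = 0.768, limma). Both regions were named after their values were seen. The sequencing chip, tested as a term over its 5 levels, gave 0 of the 34 neighbours at the FDR, against 0.0321% of all tested regions, and 1 at an unadjusted p under 0.05, against 13.6% of all.

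How much of the locus was seen in an animal went with how many peaks its library had. Without the site, 12.1 ± 2.47 of the 39 neighbours had a called peak in CON animals (9 to 16), 11.4 ± 2.99 in PAE animals (5 to 16) and 12.2 ± 2.82 in PF animals (10 to 19; SD, n = 10 each). The groups overlapped over nearly their whole range. Over the 30 animals this number had a Pearson correlation of 0.670 and a Spearman correlation of 0.608 with the number of autosomal peaks, and Pearson's r was 0.662 without the 2 libraries farthest from the median. Within groups Pearson's r came to 0.762 for CON, 0.537 for PAE and 0.795 for PF (n = 10 each). These are descriptions over libraries that share chips and depth, and no p is given. PAE replicate 7, with 109013 peaks, had the fewest neighbours called, and PF replicate 4, with 184391 peaks, the most.

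**Figure D5:**
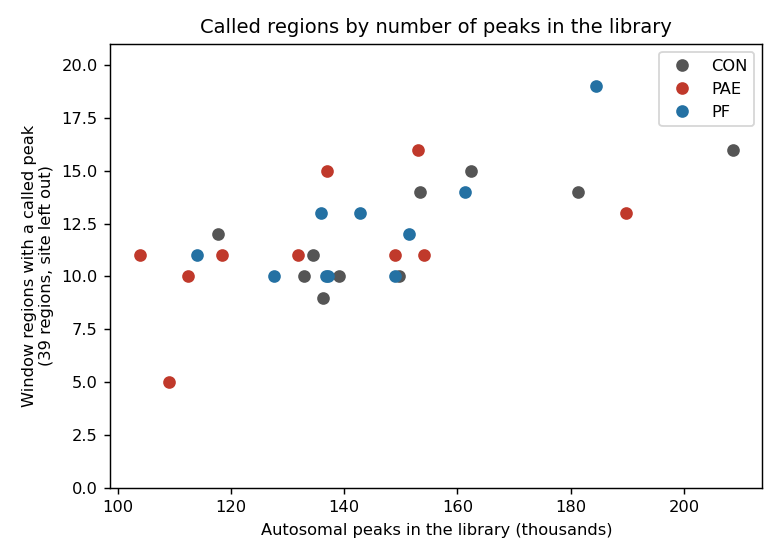
Number of the 39 neighbours with a called peak in each library (linear axis from 0) against its autosomal peaks (axis in units of 1000), coloured by prenatal group. Libraries with more peaks had more called neighbours (Pearson's r 0.670, n = 30), and the 3 groups are mixed along the trend.

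The neighbours did not follow the site closely from animal to animal. Pearson correlations of log2 height with the site over the 30 animals ran from −0.26 to 0.47, with a median of 0.11, and were above 0 at 20 of 34 neighbours. Among neighbours called in at least 6 animals, the most alike were region 23 (28204639 to 28205224) with r = 0.411, region 40 (28291256 to 28292014) with r = 0.410 and region 24 with r = 0.359. Region 23, 11.666 kb above the site, had a peak in 7 CON, 6 PAE and 6 PF animals. Its log2 differences were −0.33 for PAE against CON (standard error 0.252, adjusted p = 0.762, limma), −0.34 for PAE against PF (standard error 0.252, adjusted p = 0.988, limma) and 0.01 for PF against CON, all within the spread between animals. Region 40, 98.37 kb above the site, was seen in 8 CON, 8 PAE and 9 PF animals. Elsewhere on the autosomes, 14488 of 351653 tested regions had an r over 0.5 with the site and the median r was 0.121. The highest were on chromosome 6 at 126085768 to 126087048 (r = 0.849), on chromosome 1 at 249575411 to 249576635 (r = 0.836) and on chromosome 15 at 80982646 to 80983356 (r = 0.826), none of which is in the study's lists. Their peaks were called in 6, 6 and 9 CON, 3, 8 and 6 PAE, and 5, 9 and 8 PF animals, respectively. These values share libraries and the floor and are given as a description.

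Grik1 is 1 of 26 glutamate receptor genes in the list looked up, of which 7 have a region in the study's lists, 1 region each. All 7 were chosen by the study on these same animals, so their values carry no test. Besides Grik1, they were the AMPA receptor subunits Gria1 and Gria2, which carry fast excitatory transmission, the NMDA receptor subunits Grin1 and Grin2b, which need both glutamate and a coagonist, the delta receptor Grid1, and the metabotropic receptor Grm8, which couples to G proteins. No other kainate receptor subunit gene was among them. At Grin1 (chromosome 3, 2532387 to 2532836) 6 CON, 0 PAE and 1 PF animals had a peak, with mean heights of 0.700, 0.438 and 0.458. At Grm8 (chromosome 4, 54935087 to 54935804) it was called in 10, 9 and 9, with 1.09 ± 0.257, 0.796 ± 0.205 and 0.780 ± 0.229 (SD, n = 10 each). The study lists Grin1 and Grm8 as shared by PAE and PF animals and Grik1 as specific to PAE, so where PF animals stand at each of them was fixed by that choice. Called animals were 4 CON, 2 PAE and 0 PF at Gria2, 3, 1 and 1 at Grid1, 2, 2 and 0 at Grin2b, and 0, 2 and 1 at Gria1. Of these, Gria2, Grid1 and Gria1 are listed as shared and Grin2b as specific to PF, so that choice bears on these counts too. Gria2 came from the study's female-specific analysis, while the counts here cover both labelled sexes. In RefSeq's GRCr8 assembly, another build than that of the peaks and used for names only, the genes next to Grik1 are Bach1, which encodes a heme-responsive repressor of transcription, and Cldn17, which encodes a tight junction claudin. A protein-coding gene, LOC102549158, and a long non-coding RNA gene, LOC108352301, are listed there as overlapping Grik1.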

How the data were processed

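Peaks of 30 meDIP-seq libraries were used. The authors mapped reads to Rn6 (BWA), removed poor and duplicate reads (samtools) and ran MACS2 (2.1.4 in the file headers) on each library by itself, on paired ends with no input control and a q-value limit of 0.05. For each peak they deposited the pileup, a coverage signal not scaled for depth, the fold enrichment, and the −log10 p-value and −log10 q-value. Reads between peaks were not used here, so coverage under the calling threshold is not seen, and a called peak can lie at the common floor.

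Here, summit entries of the same peak were joined, peaks were merged across animals, and log2 values went into limma 3.58.1 (R 4.3.3) with a trended prior variance (terms for group, labelled sex and sequencing chip). P-values were adjusted by Benjamini-Hochberg over 352026 regions. Python 3.11.15, numpy 2.4.6, pandas 2.3.3, scipy 1.17.1 and matplotlib 3.10.9 were used for the rest. Replicates are separate animals, and littermates were treated as independent, except where paired by the dam that the labels give. The fit was tested on simulated data. Named regions were the site, the nearest neighbour on each side, the 3 highest by mean, the 2 with the smallest p per comparison and the 3 most alike. The window, the lists and the tests were chosen with earlier results of these data known. Intervals cover counting error only. The gene placement of neighbours was not analysed here, since the annotation at hand is of another build. The study's table gave the intron, and its fold changes and p-values were not used. Groups came from the labels. Other settings dropped the chip or the labelled sex term, used a floor per animal or a pseudocount, admitted regions seen in 2 animals, rescaled by median ratio or quantiles, kept peaks with q below 0.01 or covering 50% of the region, added litter as a random effect, used Fisher's exact test, or left out 1 animal.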

Additional observations from a re-analysis of the deposited data

Results flagged for a closer look

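In 39 sets of 10 values (12 regions named above and the number of neighbours called, in 3 groups each), 11 had a highest animal whose gap to the next, as a share of the group's range, was over Dixon's 95% critical value. That value flags about 1 in 20 sets by chance where values are normally distributed. Many of these sets hold animals tied at the floor, so the chance rate here is not known and 11 is not read as an excess. In 5 of the 11 a single animal stood above the floor, so that its gap was the whole range. These 5 were PAE replicate 5 at region 2 (0.606), CON replicate 5 at region 14 (0.502), and CON replicate 2 (0.504), PAE replicate 1 (0.754) and PF replicate 6 (0.439) at region 30. The others were PF replicate 9 at region 14 (0.966), PF replicate 2 at region 22 (0.524), CON replicate 7 (1.05) and PAE replicate 8 (0.747) at region 27, and PAE replicate 10 at region 33 (0.716). PF replicate 4 had 19 neighbours called, where the next PF animal had 14. The site itself had no such animal in any group.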

How the results depend on the processing

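Under the 13 other settings and with each of the 30 animals left out, 0 neighbours passed the FDR in any comparison, also in the labelled sex interaction (2 other settings), with smallest adjusted p over the other settings of 0.638 for PAE against CON, 0.961 for PAE against PF and 0.722 for PF against CON. Left-out animals took these to 0.582, 0.966 and 0.608. Counts at an unadjusted p under 0.05 were 0 to 2, 0 to 3 and 0 to 2. The site's log2 difference was −1.62 (PAE against CON) and −1.41 (PAE against PF) with missing peaks at 0 and a pseudocount of 0.1, and otherwise −0.65 to −0.41 and −0.52 to −0.33. With 1 animal left out it was −0.73 to −0.46 and −0.53 to −0.33. The site was chosen for these differences on the same animals, so their kept sign is a description and no support. For PF against CON the site's log2 difference was −0.21 to −0.0044, and −0.21 to 0.0016 with 1 animal left out, changing sign without CON replicate 1. The cause was not tested. Settings added after the data were seen were the share of peaks on chromosome X in place of labelled sex, the number of peaks as a covariate, and dam as a block. For the comparisons between groups no paired analysis was made, because dams differ between groups. Each PF dam was matched to a PAE partner for its ration, but the labels do not name the partner. For labelled sex, littermates were paired in the block, where 0 neighbours passed the FDR for the interaction (smallest adjusted p 0.966, 0.993 and 0.948). Litter as a random effect (estimated correlation −0.024) changed no call. Peaks of 6 to 16 fragments limit what single animals can show.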
